A study of Caenorhabditis elegans with 2 samples.

Results

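The 10 genes described here encode chaperones of *Caenorhabditis elegans*, and ZTF-11 peaks were taken from 2000 bp upstream of each gene's annotated 5′ end to the end of its gene body. They are the mitochondrial chaperonin gene *hsp-60*, the co-chaperone gene *dnj-13*, the Hsp70 gene *hsp-1* and 7 genes for subunits of the cytosolic chaperonin (*cct-1*, *cct-2*, *cct-4*, *cct-5*, *cct-6*, *cct-7* and *cct-8*). They are 10 of 19973 protein-coding nuclear genes. The genes were chosen by name with the peak lists known, since *hsp-60* and *dnj-13* carry peaks that passed the authors' reproducibility threshold, and peaks near *cct-1* and *hsp-1* were known to rank high. Their peak signal is therefore given as a description and was not tested.

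Chaperonins are ring-shaped complexes that enclose an unfolded protein and let it fold inside a chamber. HSP-60 works in the mitochondrial matrix with a small lid protein, Hsp10, and its gene is a widely used marker of the mitochondrial unfolded protein response in worms. The cytosolic ring, called CCT or TRiC, is built from 8 different subunits and folds actin and tubulin. HSP-1 is the constitutive cytosolic Hsp70 of the worm, and DNJ-13 is a DnaJ (Hsp40) protein of the kind that delivers clients to Hsp70 and stimulates its ATPase.

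Chromatin immunoprecipitation and sequencing (ChIP-seq) had been done on whole L4 larvae of both sexes, in 1 group of 2 biological replicates. The strain, OP236, carries the *unc-119(ed3)* allele on chromosome III and the transgene wgIs236, which expresses ZTF-11 (a Myt1-family zinc finger protein) fused to eGFP; both replicates share this background. The signal thus comes from a tagged transgene product in all tissues together, and there was no second condition. The relaxed lists held 30000 peaks for the pooled replicates, 30000 for replicate 1 and 22869 for replicate 2, and the list that the authors thresholded by irreproducible discovery rate (IDR) held 47. Signal values are the authors' own, in a unit that is not stated, so they are compared only within a list, and the depth is unknown. The −log10 q values reached 0.629 in replicate 1 and were at least 2.58 in replicate 2, and how they were computed is not stated.

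The lists placed strong ZTF-11 peaks upstream of 4 of the 10 genes, *dnj-13*, *hsp-60*, *hsp-1* and *cct-1*. At the other 6 they held weaker relaxed peaks, the strongest pooled ones with −log10 q from 0.064 to 0.368. A thresholded peak lay in the window of *hsp-60* and of *dnj-13*, 2 of 10, where 0.295% of all genes have one. A peak among the 1000 strongest pooled peaks lay in 4 of 10 windows, against 5.31% of genes. In contrast, a pooled relaxed peak of any strength lay in all 10 windows, but 74.3% of genes have one, so a relaxed peak by itself sets none of these genes apart. A replicate 1 peak lay in 9 of 10 windows (72.6% of genes) and a replicate 2 peak also in 9 (62.2%). The first pair of counts above rests on signal that was known when the genes were chosen, and nothing is read from it.

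At *hsp-60* (WBGene00002025, chromosome III, 1619742 to 1625803, plus strand) the thresholded peak lay between the gene and its divergent neighbour Y22D7AL.10. RefSeq annotates the product of Y22D7AL.10 as the mitochondrial 10 kDa heat shock protein, the Hsp10 lid of the HSP-60 chamber. The 5′ ends of the 2 genes are 813 bp apart, and the summit at 1619124 was 618 bp upstream of *hsp-60* and 195 bp upstream of Y22D7AL.10. The peak can therefore not be given to one of the genes alone. Its signal was 30.2 in the pooled list, where it ranked 32nd. An overlapping peak had a signal of 17.3 in replicate 1 (rank 223) and of 11.6 in replicate 2 (rank 167), with summits 15 bp and 0 bp away. Among the 10 genes this was the only one whose overlapping peak ranked within the 1000 strongest in each replicate. The 280 bp of the peak (ce11, plus strand) are shown because it is the strongest of the set. Capitals mark matches to the inverted repeats GAANNTTC and TTCNNGAA, each a pair of units of the heat shock element bound by HSF-1.
*hsp-60* peak, chrIII:1618984-1619263: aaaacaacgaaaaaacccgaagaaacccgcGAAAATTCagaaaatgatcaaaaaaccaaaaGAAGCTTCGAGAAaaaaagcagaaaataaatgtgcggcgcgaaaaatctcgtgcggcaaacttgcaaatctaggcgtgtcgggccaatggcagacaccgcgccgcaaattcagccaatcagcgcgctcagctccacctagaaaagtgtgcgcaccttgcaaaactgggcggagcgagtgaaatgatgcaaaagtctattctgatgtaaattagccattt

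Other peaks in the *hsp-60* window were weak in the pooled list. They had signals of 9.17 at 1892 bp upstream, 8.59 at 3080 bp downstream and 7.67 at 4237 bp downstream of the 5′ end, the last pair in introns. Replicate 1 had peaks near all 3, with signals of 6.54, 13.1 and 11.5, whereas replicate 2 had none there. Weak peaks of both replicates also overlapped at the start of the gene, with a signal of 7.05 in replicate 1 and 2.56 in replicate 2. In each of the 3 lists the shared upstream site had the highest signal of the window.

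At *dnj-13* (WBGene00001031, chromosome II, 11545701 to 11547360, plus strand) the thresholded peak lay close to the start of the gene. The summit, at 11545510, was 191 bp from the 5′ end, and its pooled signal was 28.6 (rank 41). The overlapping peak of replicate 1 had a signal of 23.1 and ranked 50th, or 36th among nuclear peaks. That of replicate 2 had a signal of 7.03 and ranked 1354th. The site thus stood far higher in the order of replicate 1 than in that of replicate 2. The summit fell where an unclassified non-coding RNA gene is annotated on each strand, from 237 to 88 bp upstream, of which F54D5.22 is the one on the strand of *dnj-13*. It also lay inside *dhgd-1*, a gene for a mitochondrial D-2-hydroxyglutarate dehydrogenase that runs on the opposite strand across the whole of *dnj-13*. The 5′ end of F54D5.9, a gene for an F-box protein on the opposite strand, was 682 bp from the summit. The peak sequence is shown with the same capitals.
*dnj-13* peak, chrII:11545370-11545649: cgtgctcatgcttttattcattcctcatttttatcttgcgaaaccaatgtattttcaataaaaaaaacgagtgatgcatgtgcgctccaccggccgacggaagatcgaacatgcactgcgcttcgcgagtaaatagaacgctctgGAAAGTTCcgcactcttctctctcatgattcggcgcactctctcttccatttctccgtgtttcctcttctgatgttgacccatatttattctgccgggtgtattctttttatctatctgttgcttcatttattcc
A match to GAANNTTC was centred 8.5 bp from this summit, the closest of any match in the set. The same bases contain AAGTT, letters of the Myt1-family core counted below, centred 9.0 bp from the summit.

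The strongest peak at *cct-1*, the gene for the alpha subunit (WBGene00000377, chromosome II, 8185443 to 8187601, plus strand), fell just outside the threshold. The weakest of the 47 thresholded peaks had a signal of 27.2 and ranked 47th, *dnj-13* lay just inside at 28.6, and *cct-1* just outside at 25.3 and rank 50. All 3 peaks at *hsp-60*, *dnj-13* and *cct-1* had the same −log10 q of 2.12, the highest in the pooled list. In the authors' list for the older ce10 build, which holds 60 thresholded peaks, there was a chromosome II peak with a signal of 25.3 that matched the *cct-1* peak to within 0.01. Such a match was found for 46 of the 47 ce11 peaks. Matched in this way, *cct-1* would be the third of the 10 genes with a thresholded peak. The summit at 8185204 lay 239 bp upstream of *cct-1* and 181 bp upstream of *mig-5*, a Dishevelled gene of the Wnt pathway on the opposite strand. The 5′ ends of these genes are 420 bp apart, so here too the peak sits in a shared upstream region. Overlapping peaks had a signal of 17.2 in replicate 1 (rank 229) and of 7.08 in replicate 2 (rank 1320).
*cct-1* peak, chrII:8185064-8185343: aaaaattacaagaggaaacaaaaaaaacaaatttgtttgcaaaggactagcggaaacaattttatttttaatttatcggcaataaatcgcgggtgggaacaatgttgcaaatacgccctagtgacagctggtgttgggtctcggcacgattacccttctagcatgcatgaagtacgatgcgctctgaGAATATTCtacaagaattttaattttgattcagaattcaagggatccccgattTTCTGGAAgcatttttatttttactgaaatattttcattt

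At *hsp-1* (WBGene00002005, chromosome IV, 17278959 to 17281330, plus strand) the replicates differed more. The pooled summit was 415 bp upstream, with a signal of 20.5 and a rank of 110, and its −log10 q was below the 2.12 of *hsp-60*, *dnj-13* and *cct-1*. Replicate 1 had a peak with its summit at the same base, with a signal of 18.1 and a rank of 158. The strongest overlapping peak of replicate 2 had a signal of 2.92 and a rank of 14146, against a median of 3.30 for all peaks of that list. The pooled strength at *hsp-1* thus came with a strong peak in replicate 1 and a peak below the list's median in replicate 2. The strongest replicate 2 peak of the window lay in coding sequence instead, 1741 bp downstream of the 5′ end, with a signal of 5.56 (rank 3201). The gene also hosts the small nucleolar RNA gene F26D10.24, from 1087 to 1210 bp downstream. The nearest pooled summit on either side of it was at 655 and at 1416 bp, with signals of 6.57 and 7.01, both below the pooled median of 7.71. Hsp70 genes resemble one another in coding sequence, and how reads with several matches were treated is not given in the sources used here.
*hsp-1* peak, chrIV:17278404-17278683: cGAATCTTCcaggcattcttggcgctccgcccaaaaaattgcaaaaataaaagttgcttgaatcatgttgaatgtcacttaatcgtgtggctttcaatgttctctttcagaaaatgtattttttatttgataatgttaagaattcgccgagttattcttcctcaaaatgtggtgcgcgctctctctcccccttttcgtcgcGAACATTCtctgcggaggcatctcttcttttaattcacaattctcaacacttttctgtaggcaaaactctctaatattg

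**Figure D1:**
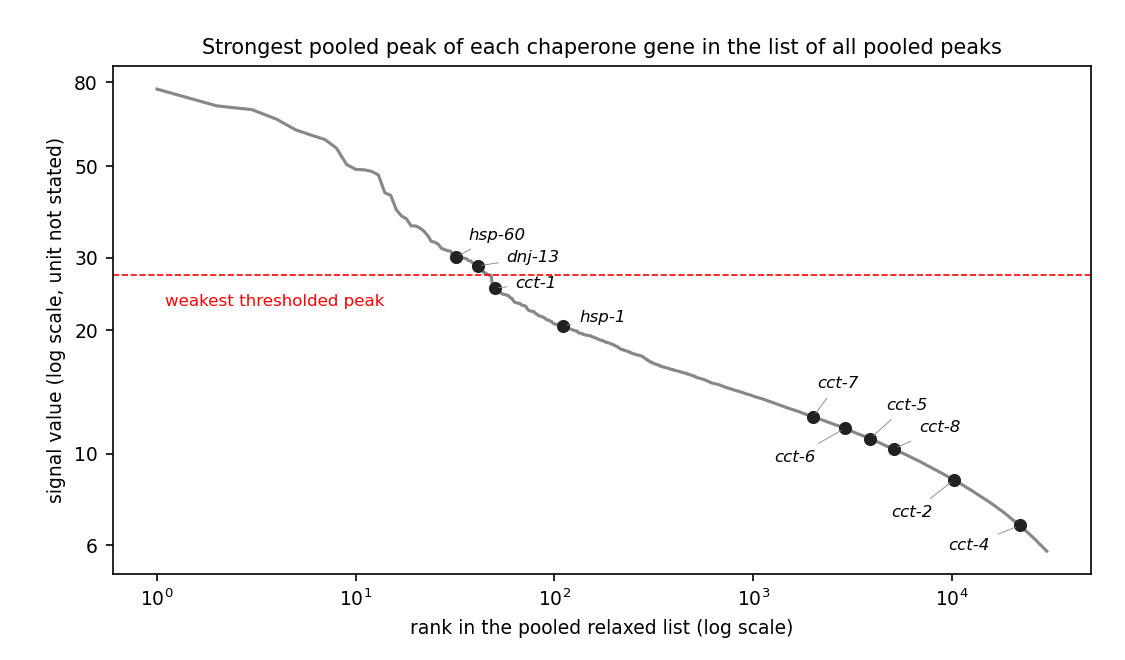
Signal of each of the 30000 pooled peaks against its rank (both axes logarithmic), with the strongest peak in the window of each of the 10 genes as a labelled point; the dashed line is the weakest thresholded peak at 27.2. *hsp-60* and *dnj-13* sit above the line, *cct-1* just under it, *hsp-1* at rank 110, and the other 6 genes beyond rank 2000.

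The remaining 6 subunit genes of the CCT ring had pooled peaks that ranked from 2003 to 21891. The −log10 q of these peaks ran from 0.064 at *cct-4* to 0.368 at *cct-7*, against 2.12 at *hsp-60*, *dnj-13* and *cct-1*. The strongest was at *cct-7* (chromosome V, 1872246 to 1875505), which encodes the eta subunit. Its pooled peak had a signal of 12.31 with the summit 310 bp upstream, and overlapping peaks had signals of 7.61 in replicate 1 (rank 14721) and 3.05 in replicate 2 (rank 13147). Neither replicate alone thus held a strong peak at that site. The pooled summit was 129 bp from the 5′ end of T10B5.4, a gene on the opposite strand that starts 439 bp upstream of *cct-7*. Replicate 2 was highest elsewhere in *cct-7*, in coding sequence 2808 bp downstream, with a signal of 8.91 and a rank of 546. No replicate 1 peak was called there.

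*cct-6* (chromosome III, 5853530 to 5855687, minus strand), the gene for the zeta subunit, had a pooled signal of 11.5 with its summit 316 bp upstream, 15 bp from the 5′ end of the divergent aldehyde dehydrogenase gene *alh-9*. Overlapping peaks had a signal of 10.7 in replicate 1 (rank 4158) and of 5.67 in replicate 2 (rank 2992). *cct-8* (chromosome IV, 1087108 to 1093920, minus strand), for the theta subunit, had a pooled signal of 10.3 with its summit 426 bp upstream and 195 bp from the divergent gene Y55F3AR.2. The overlapping peaks had a signal of 7.87 in replicate 1 (rank 13369) and of 6.40 in replicate 2 (rank 1963). Both genes, like *cct-7*, repeat the arrangement seen at *hsp-60* and *cct-1*, with the strongest pooled peak near the start of the gene on the side of a divergent neighbour.

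In the other 3 subunit genes the strongest pooled peak lay away from the start. At *cct-5* (chromosome III, 4499188 to 4508114, minus strand), for the epsilon subunit, it had a signal of 10.9 and lay in an intron 3726 bp downstream. Replicate 1 had its strongest peak of the window 3935 bp downstream (signal 13.7, rank 1083), and replicate 2 had its strongest 5379 bp downstream (signal 6.61, rank 1738). These are different places in the gene. At *cct-2* (chromosome II, 8927741 to 8929815), for the beta subunit, the pooled peak lay in coding sequence 653 bp downstream, with a signal of 8.64 (rank 10231) and an overlapping peak in replicate 1 alone (signal 9.71). *cct-4* (chromosome II, 8283667 to 8285711), for the delta subunit, was the lowest of the 10. Its window held a single pooled peak, with a signal of 6.70 and a rank of 21891, 1631 bp upstream and inside the neighbouring gene *nst-1*, and no peak of either replicate.

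**Figure D2:**
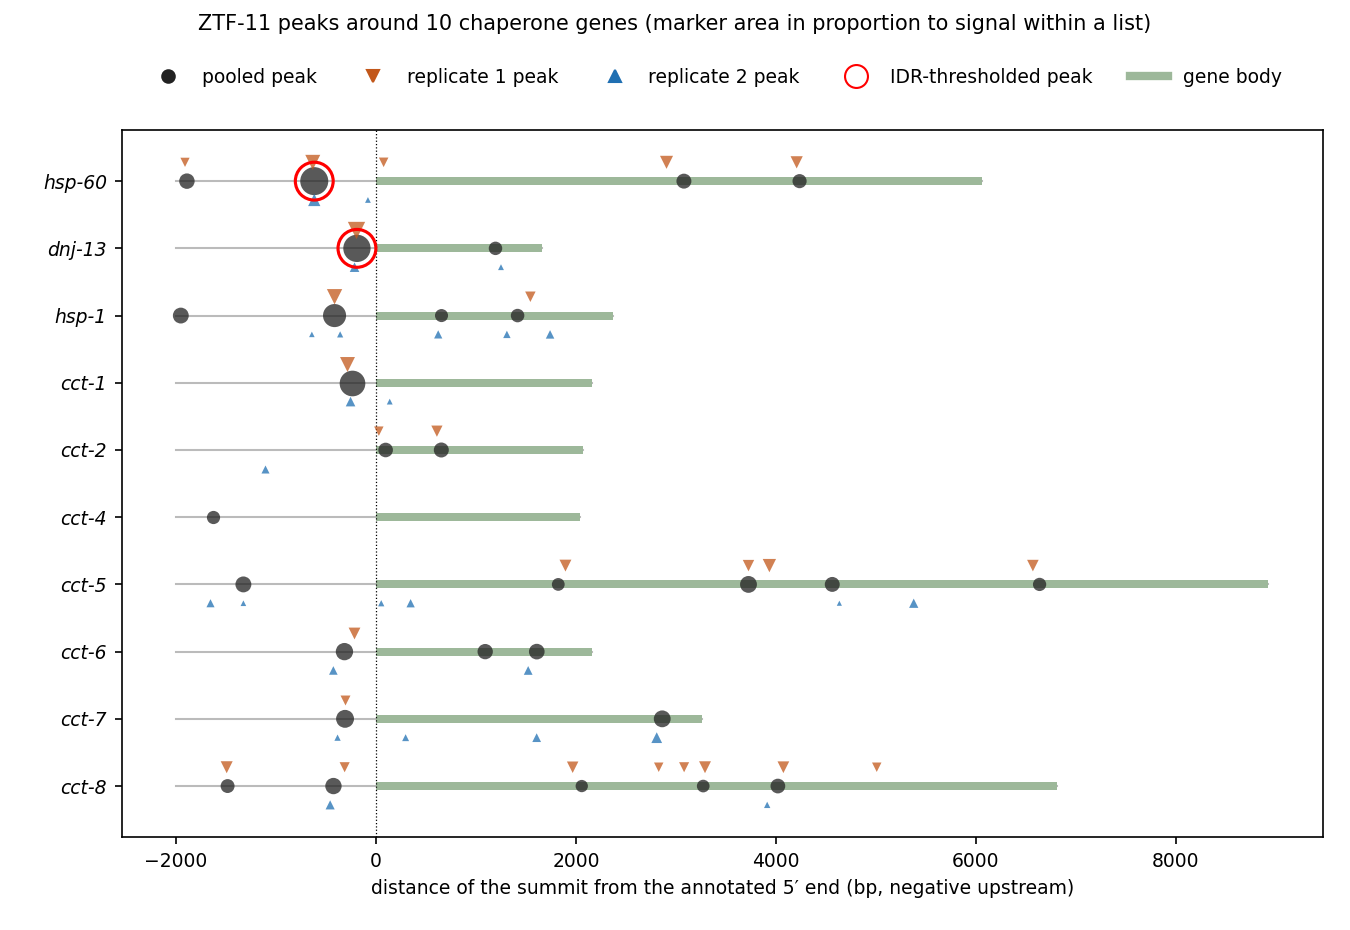
Position of every peak summit in the window of each gene, in bp from the annotated 5′ end with upstream negative, for the pooled list (circles), replicate 1 (triangles above) and replicate 2 (triangles below); marker area follows the signal within each list, red rings mark thresholded peaks and green bars gene bodies. The largest circles lie 191 to 618 bp upstream of *hsp-60*, *dnj-13*, *hsp-1* and *cct-1*, and the window of *cct-4* holds a single pooled peak.

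The 10 windows held 29 pooled peaks, 12 upstream of the gene (41.4%, against 38% over all genes) and 17 in the gene body. The upstream peaks had a median signal of 10.9 and reached 30.2, whereas those in gene bodies had a median of 8.17 and none was above 10.9. Over all genes the medians were 7.75 upstream and 7.72 in gene bodies. The highest upstream values belong to *dnj-13*, *hsp-60*, *hsp-1* and *cct-1*, whose peaks were known when the genes were chosen, so nothing is read from this difference. For 7 of the 10 genes the strongest pooled peak lay within 1000 bp upstream of the 5′ end, where 18.1% of all genes have theirs. Of these 7, nearest the start was *dnj-13* at 191 bp and farthest *hsp-60* at 618 bp. The 18.1% is a share of all genes, of which 74.3% have a pooled peak in the window. The 7 include *hsp-60*, *dnj-13*, *hsp-1* and *cct-1*, so nothing is read from this count either. Within each replicate the medians lay closer together. In replicate 1 they were 11.1 upstream and 10.1 in gene bodies, with maxima of 23.1 and 13.7. In replicate 2 they were 5.03 and 4.71, with maxima of 11.6 and 8.91. In the promoter alone, from 1000 bp upstream to 200 bp downstream, 8 of 10 genes had a pooled peak against 39.1% of all genes, and 7 had a peak of each replicate against 12.8%. The thresholded peaks of *hsp-60* and *dnj-13* were among the 0.175% of genes with one in that window. The counts of 8 and 7 also include the genes whose peaks were known beforehand, so nothing is read from them.

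To set the genes side by side, the highest signal in each window was ranked among all protein-coding genes, with 50 as the midpoint. In the pooled list *hsp-60* stood at the 99.8th percentile, *dnj-13* at 99.7, *cct-1* at 99.7 and *hsp-1* at 99.3. *cct-7* stood at 89.9, *cct-6* at 86.1, *cct-5* at 81.9, *cct-8* at 76.9, *cct-2* at 60.7 and *cct-4* at 36.4. The first 4 were in the top 10% of genes in the pooled list, where 10% of genes lie by construction, and the median of all 10 was 88.0. The median window was 4265.5 bp for these genes and 4027 bp for all. The longest windows were those of *cct-5* (10927 bp), *cct-8* (8813 bp) and *hsp-60* (8062 bp). Ranked among genes of like window length, *cct-5* fell to 65.5 and *cct-8* to 61.7. By that ranking *hsp-60* stood at 99.95 and *cct-2* rose to 63.6. In the promoter alone *cct-6*, *cct-7* and *cct-8* also reached the top 10%, so that 7 of the 10 genes did. The strongest pooled peak of *cct-6*, *cct-7* and *cct-8* was the same in both windows, so their signal was unchanged. A pooled peak lay in the promoter of 39.1% of all genes, against 74.3% in the main window, and genes without one tie at the bottom. Their higher percentiles therefore do not show a stronger promoter signal.

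The replicates ordered the genes differently. In replicate 1 the highest were *dnj-13* (99.9), *hsp-1* (99.2), *hsp-60* (98.9) and *cct-1* (98.8), followed by *cct-5* (94.4). In replicate 2 they were *hsp-60* (99.0), *cct-7* (96.97), *cct-1* (93.2), *dnj-13* (93.0), *cct-5* (91.3) and *cct-8* (90.4), while *hsp-1* stood at 85.1. The gap was widest for *cct-7*, at 51.0 in replicate 1 and 96.97 in replicate 2. In the top 10% of both replicates were 4 genes, *hsp-60*, *dnj-13*, *cct-1* and *cct-5*, against 2.06% of all genes. Peaks at *hsp-60*, *dnj-13* and *cct-1* were known when the genes were chosen, so nothing is read from this count. Of the 1000 strongest nuclear peaks, replicate 1 had peaks in 4 windows (*hsp-60*, *dnj-13*, *hsp-1* and *cct-1*; 5.29% of genes) and replicate 2 in 2 (*hsp-60* and *cct-7*; 5.3%). With 2 replicates, differences between neighbours in these orders cannot be set against a spread.

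**Figure D3:**
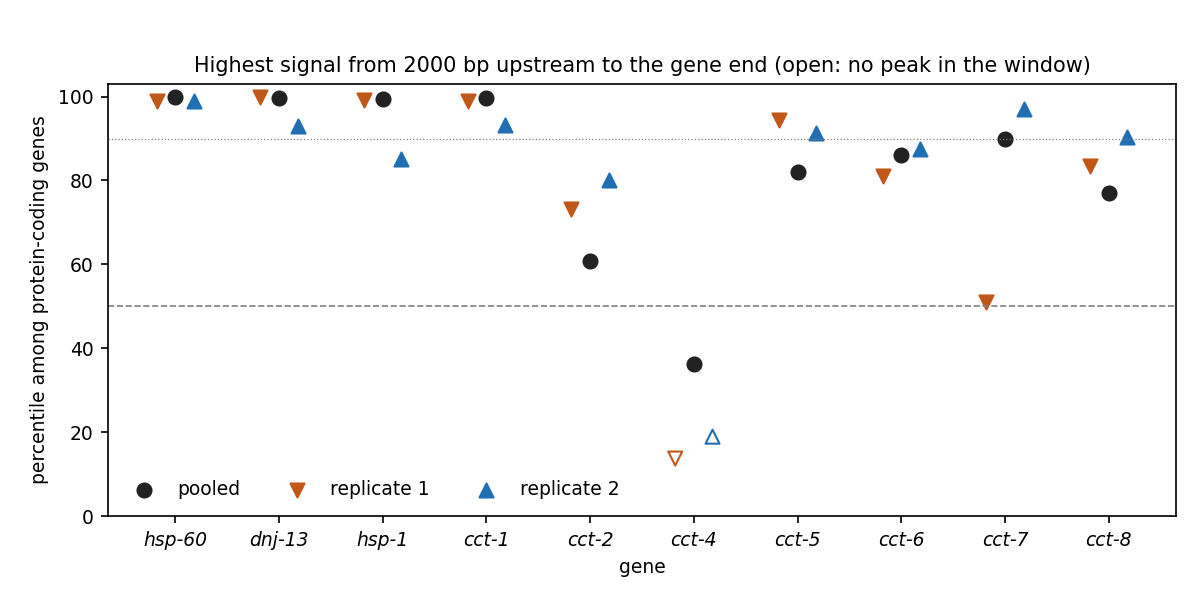
Percentile of the highest signal in each window among 19973 protein-coding genes, for the pooled list (circles), replicate 1 (downward triangles) and replicate 2 (upward triangles); open symbols mark windows with no peak, the dashed line is 50 and the dotted line 90. *hsp-60*, *dnj-13* and *cct-1* lie above 90 in all 3 lists, *hsp-1* falls to 85.1 in replicate 2, and *cct-4* lies below 50 in all of them.

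A stricter reading of agreement is that the strongest peak of one replicate overlaps the strongest of the other in the same window. This was so for *hsp-60*, *dnj-13* and *cct-1*, 3 of the 10 genes, and for 5.38% of all genes. That share also counts genes without a peak of each replicate, where no overlap is possible. Some peak of each replicate lay in the window of 9 of the 10, all but *cct-4*, but this holds for 47.8% of genes. The strongest pooled peak itself was overlapped by a peak of each replicate at 7 of the 10 genes, where the share was 10% of all pooled peaks, 43.4% of the 1000 strongest and 68.5% of the 200 strongest. The pooled list was made from the same reads as the replicate lists, so these overlaps are not independent of it. The peaks of *hsp-60* and *dnj-13* were known to have passed the reproducibility threshold, and those near *cct-1* and *hsp-1* to rank high. Nothing is therefore read from the counts in this paragraph.

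Most of the genes share a feature of their position. Whether choosing them with the peaks known favoured this feature was not examined. For 9 of the 10, all but *hsp-1*, the 5′ end of another protein-coding gene on the opposite strand lay within 2000 bp upstream, at distances from 331 bp (*cct-6*) to 1190 bp (*cct-2*). This arrangement is found for 27.8% of all protein-coding genes. An upstream peak at these 9 genes is therefore also near or within a neighbour, and its effect on either gene was not measured. Transcript levels were not analysed here.

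The letters of the heat shock element were common upstream of these genes. In the 300 bases from 250 before to 50 after the 5′ end, GAANNTTC or TTCNNGAA (each reads the same on both strands) occurred in 8 of the 10 promoters and in 32.5% of all promoters. In the strongest pooled peaks of the 10 genes they occurred in 9, against 32.1% of all 30000 pooled peaks and 14.9% of the 47 thresholded peaks. In a search added after the data were seen, the longer forms of 3 units, GAANNTTCNNGAA and TTCNNGAANNTTC, were looked for in the 2000 bp upstream; each is the reverse complement of the other, so both strands were covered. They were found upstream of *hsp-60*, *dnj-13* and *hsp-1*, 3 of 10, and upstream of 12.4% of all genes. The 4 sites are shown on the plus strand with 8 bases on either side, to place them against the peaks.
*hsp-60*, first capital 697 bp upstream: aaccaaaaGAAGCTTCGAGAAaaaaagca
*dnj-13*, first capital 409 bp upstream: acttcgccTTCCAGAATATTCttttttca
*hsp-1*, first capital 903 bp upstream: taataaaaGAATCTTCGAGAActcattcc
*hsp-1*, first capital 144 bp upstream: cgaaattcGAATTTTCTAGAAtcccgcca
The site at *hsp-60* lay inside the thresholded peak. Those at *dnj-13* and *hsp-1* lay outside the strongest pooled peaks of their genes. A match of letters is a description of the sequence and not a measured binding site.

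Letters of the Myt1-family core were also counted, and with 10 genes nothing is read from their shares. The 7-mer AAAGTTT, on either strand, occurred in 1 of the 10 promoters (*cct-2*) and in 21.7% of all promoters. It occurred in 1 of the 10 strongest peaks (*cct-5*), against 20.6% of all pooled peaks and 8.51% of the 47 thresholded peaks. It was absent from the 4 peak sequences shown above. The shorter AAGTT occurred in 8 of the 10 promoters and in 69.1% of all promoters. Among peaks it occurred in 6 of the 10 strongest, in 69% of all pooled peaks and in 57.4% of the thresholded ones. The peaks at *hsp-60* and *dnj-13* had 45.4% and 43.2% G and C, and those at *hsp-1* and *cct-1* 38.9% and 35.4%, against a median of 36.1% for all pooled peaks and 41.4% for the thresholded ones.

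Of 72 further genes listed for chaperones, their cofactors and stress regulators, 67 matched the annotation. None of the 67 had a thresholded peak in its window. The list held the Hsp10 gene under a symbol that did not match, so Y22D7AL.10 is not among the 67, and it does carry the thresholded peak it shares with *hsp-60*, at the 99.8th percentile. A pooled peak lay in the windows of 58 of the 67 (86.6%), where the share of all genes is 74.3%, and 14 of the 67 (20.9%) were in the top 10% of genes. Their median percentile was 65.1, below that of the 10 genes described here, which had been chosen with their ranks known. The subunit missing from the 10, *cct-3* for the gamma subunit, had a pooled signal of 11.5 in an intron (percentile 85.96) and no replicate 2 peak. Across all 8 subunit genes of the CCT ring the median percentile was 83.9, and *cct-1* was the only one in the top 10%. Small heat shock protein genes, whose products hold unfolded proteins in solution, had a median of 87.8, close to the 88.0 of the 10 genes, and 4 of 12 (33.3%) in the top 10%. In this class a pooled peak shared by neighbouring genes was counted for each of them. Its medians were 68.7 in replicate 1 and 36.0 in replicate 2, against 88.9 and 90.9 for the 10 genes. Prefoldin genes, whose products hand unfolded actin and tubulin to the ring, had a median of 42.9, and Hsp90 and its cofactors 45.7. Among 26 other DnaJ genes the median was 62.7, with 5 in the top 10%. The mitochondrial Hsp70 gene *hsp-6*, a partner of *hsp-60* in the mitochondrial stress response, stood at 83.6, with an intronic pooled signal of 11.1 that ranked 3470th. It stood at 34.7 in replicate 1 and 63.0 in replicate 2, and its promoter held no pooled peak.

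**Figure D4:**
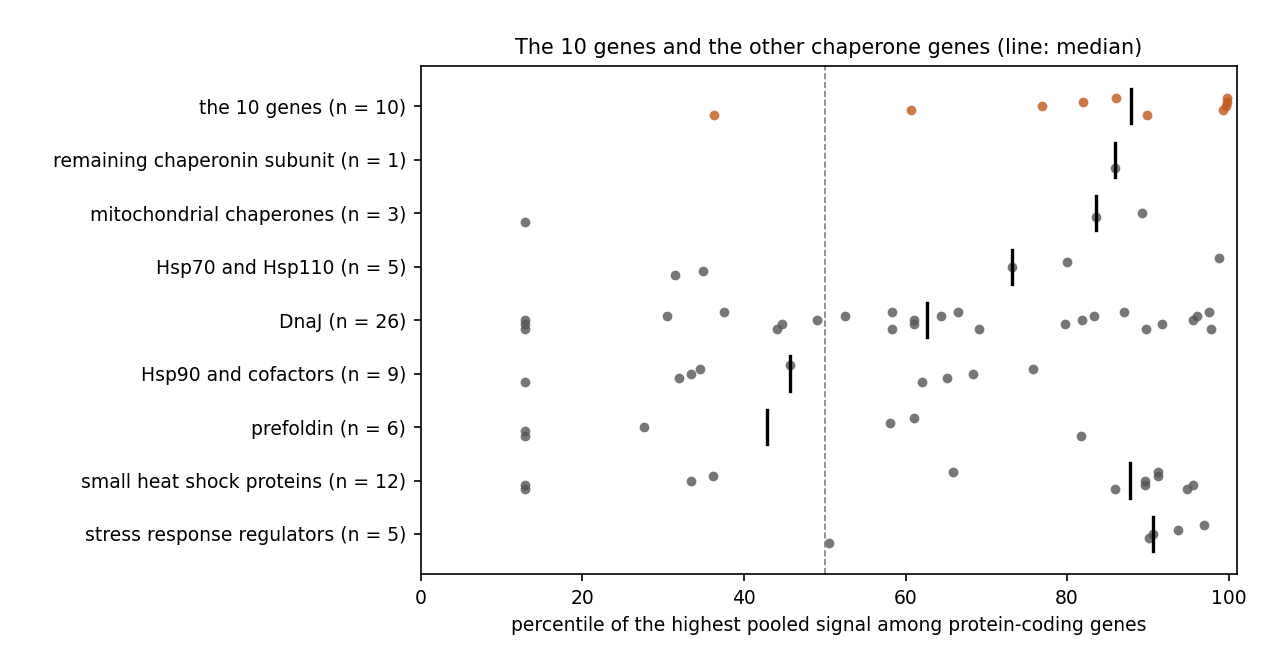
Percentile of the highest pooled signal in the window for the 10 genes (top row, orange) and for 67 other chaperone genes by class (grey), with the median of each class as a vertical line and the midpoint of all genes dashed. 4 of the 10 genes crowd above 99, and the class medians of the other genes run from 42.9 for prefoldin to 90.6 for the stress response regulators.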

How the data were processed

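Peak lists of ZTF-11 ChIP-seq were used, made from L4 larvae in 2 replicates of a single group and numbered as in the labels, with fragments of 150 to 350 bp per the labels. Per the descriptions deposited with the lists, the authors called relaxed peaks, as input for IDR, per replicate and for the pooled reads, each against a control, and deposited an IDR-thresholded list beside them. The signal value of each peak and the −log10 of its q value are as deposited. For aligner, peak caller and settings, nothing is given in the sources used here. Controls were not analysed here. Nothing in the lists gives read depth, so no interval was computed.

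Lists in ce11 were joined to Ensembl release 115 genes (WBcel235, the same coordinates). A peak belonged to a window when its summit lay in it. Sequences and gene products come from RefSeq (WBcel235). The ce10 list was compared only by chromosome and signal, and no coordinates were converted. Percentiles are mid-ranks among all protein-coding genes, with genes without a peak tied at the bottom.

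The genes, lists and letters were chosen with earlier results of these data known, so values are set beside those of all genes and no test was made. Named are the 10 genes, genes that start within 2000 bp of a thresholded peak of theirs or hold their strongest peak, and, of the other chaperones, *cct-3*, *hsp-6* and the 4 with the highest promoter signal. *mig-5*, *alh-9*, Y55F3AR.2, T10B5.4, F26D10.24 and the stress regulators were named after their values were seen. Alternatives were other windows, any overlap of 1 bp, peaks at or above the median signal, genes of like window length, each replicate alone and other numbers of top peaks. The ce10 list was added after the data were seen. Assignment of peaks was tested on simulated data. Python 3.11.15, numpy 2.4.6, pandas 2.3.3 and matplotlib 3.10.9 were used.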

Additional observations from a re-analysis of the deposited data

How the results depend on the processing

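The number of the 10 genes with a thresholded peak was 2. It was 1, *dnj-13*, with a promoter of 500 bp upstream and 100 bp downstream, and 0 among thresholded peaks at or above their median signal of 32.9. It was 3 in the ce10 list, which adds *cct-1*. Among the 47 strongest nuclear peaks of one replicate it ranged from 0 without replicate 1 to 1, *dnj-13*, without replicate 2. The median percentile was 88.0. It was 95.4 with the promoter of 1000 and 200 bp, 95.6 with that of 500 and 100 bp and 94.3 in the 2000 bp upstream alone. A pooled peak lay in these windows for 39.1%, 24.1% and 48.7% of all genes, against 74.3% in the main window. Genes without one tie at the bottom, so a gene can rise with no change in its signal. Leaving out a replicate gave medians of 88.9 to 90.9. Among genes of like window length the median was 88.6. The number in the top 10% of genes was 4, or 7 in the promoters of 1000 and 200 bp and of 500 and 100 bp, and 5 to 6 when a replicate was left out. Genes with a peak among the 1000 strongest numbered 2 to 4 when a replicate was left out; without replicate 1, *dnj-13*, *hsp-1* and *cct-1* were lost and *cct-7* entered. Of 80 percentiles of single genes under the alternatives, 35 moved by more than the spread between the replicates, 18 up and 17 down. Values that leave out a replicate are among the 80, and the spread was taken from the same 2 replicates. The count is therefore a description only. The cause of the moves was not tested. No paired analysis was possible because there was 1 group. Depth is unknown, so an absent relaxed peak shows no absence of binding.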

Other observations

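Outside the 10 genes, *hsp-3*, which encodes an Hsp70 of the endoplasmic reticulum, had the strongest replicate 2 peak of the 67 matched chaperone genes. Its pooled peak had a signal of 18.4 (rank 198) with the summit 46 bp upstream of the 5′ end on chromosome X. Replicate 2 had its strongest peak of the window 14 bp upstream, with a signal of 17.5 and a rank of 25. Replicate 1 had its strongest at the other end of the gene, 3088 bp downstream in an exon outside the coding sequence, with a signal of 21.1 and a rank of 65. The percentiles were 98.8 in the pooled list, 99.8 in replicate 1 and 99.9 in replicate 2.

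Of the 67 other chaperone genes matched, which do not include the Hsp10 gene Y22D7AL.10 with its signal of 30.2, those next in pooled promoter signal were *dnj-9* (15.9, summit 219 bp upstream), *dnj-5* (14.5, 970 bp upstream) and *hsp-12.1*, a small heat shock protein gene (13.9, 66 bp upstream). In replicate 2 these genes stood at percentiles of 75.02, 79.0 and 53.05. Of 5 regulators of the stress responses, 4 were in the top 10% in the pooled list. They were *hsf-1*, the heat shock transcription factor gene (93.8), its negative regulator *hsb-1* (90.6), and *dve-1* (96.98) and *ubl-5* (90.1), which act in the mitochondrial unfolded protein response. In replicate 2 they stood at 48.3, 18.9, 81.7 and 86.1, and *hsb-1* had no replicate 2 peak in its window. In the promoter alone, *hsb-1* stood at 96.4 and *ubl-5* at 71.8 in the pooled list, and *hsf-1* and *dve-1* had no pooled peak. The windows of *hsf-1* and *dve-1* span 11579 and 8778 bp, and those of *hsb-1* and *ubl-5* 3135 and 3016 bp. The window of a typical gene is 4027 bp (median). Whether window length affected these percentiles was not tested.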
